A study of Mus musculus with 2 samples.

Results

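The genes of translation initiation and of the Atf4 response were examined in long-read RNA sequencing of the mouse adrenal gland. Members were the protein-coding genes whose name begins with Eif and a digit from 1 to 6, together with Atf4, Ddit3, Asns, Trib3, Chac1 and Ppp1r15a. The rule used names and gene types only, and it gave 62 gene identifiers with 61 names, against 16910 annotated nuclear genes with a read in either library. Of the 62, 59 had a read, 55 had at least 3 reads in each library, and 28 had at least 50 in each. Total RNA came from adrenal gland tissue of female B6CASTF1/J mice aged 2 months, untreated as far as the labels say. The 2 libraries form 1 group and are given as biological replicates 1 and 2. Their biosamples are numbered as females 3 and 4, although the library descriptions carry the number 3 in both cases and share 1 donor identifier, so whether they stem from separate animals is not settled by the labels.

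Initiation factors bring the initiator tRNA, the small ribosomal subunit and the mRNA cap together, and they then release the ribosome into elongation. Stress kinases phosphorylate the alpha subunit of eIF2, which blocks its recharging by the exchange factor eIF2B. General initiation then falls, while Atf4 mRNA, whose leader holds upstream reading frames, is translated better, and the Atf4 protein switches on genes of amino acid supply and stress. In the adrenal cortex, corticotropin drives the translation of labile proteins that steroid synthesis depends on.

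Replicate 1 held 1277310 reads and replicate 2 held 520388, of which 94.7% and 96.6% fell on annotated nuclear genes. CPM were taken over those reads. A long read stands for 1 molecule, so CPM were not divided by length. With 3 reads taken as the limit per library, a gene without reads could still lie at 2.48 CPM (replicate 1) or 5.97 CPM (replicate 2). The 5 cortex markers, among them Cyp11a1 and Star, were all detected and summed to 49499.9 and 54883 CPM, which matches the labelled tissue. The 5 medulla markers, among them Th and Chga, were detected too and summed to 11580.4 and 6677 CPM, with Chgb and Pnmt called lower in replicate 2, as were 3.59% of all genes. Chga had a log2 ratio of replicate 2 over replicate 1 of -0.77, while Dbh and Th lay at 0.62 and 0.07. Of 5 immediate early and heat shock genes, Nr4a1 and Hspa1b were called higher in replicate 2, as were 5.96% of all genes. Jun, Egr1 and Fos had a lower CPM in replicate 2 and were not called. The list summed to 1159 and 2648 CPM. In bulk tissue, fewer cells of a type and less RNA per cell cannot be told apart. With 1 library a side, every test here compares these libraries and not conditions, has no replicate check, and may measure a technical difference.

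Replicate 1 gave the members 11947 reads in 793 transcript models, and replicate 2 gave them 5234 reads in 433. This made 9878 and 10413 CPM. The 10 most abundant members supplied 54.2% and 56.6% of member reads. A mean above 500 CPM was reached by 5 members, and 25 lay between 100 and 500 CPM. Levels in the 2 libraries followed each other over the 62 identifiers, with a Pearson r of 0.960 on log2(CPM + 1) and a Spearman rho of 0.943. These points share their libraries and span a wide range of levels.

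Most members, like most tested genes, showed no called difference in level between the libraries. In several, the share of reads in the main or in annotated transcript models differed. At the gene level, 3 of 55 tested members passed the test between the libraries (Fisher's exact test for each gene, two-sided, with Benjamini-Hochberg adjustment over 10170 genes, adjusted p under 0.05 and at least 2-fold). Over all tested genes the share called was 9.55%, against 5.45% of members. Eif4a1 and Eif2ak3 were higher in replicate 2, as were 5.96% of all genes, and Eif3a was lower, as were 3.59%. The median log2 ratio of replicate 2 over replicate 1 was -0.03 over the 55 members and -0.06 over all tested genes. At any fold, 13 members had an adjusted p under 0.05. The matching share over all genes was not counted, so this number cannot be set against it. Within genes, the share of reads in the main transcript passed the test in 8 of 28 members with at least 50 reads in each library (adjusted p under 0.05 and at least 10 percentage points), against 16.5% of 2098 genes. It was higher in replicate 2 in each of the 8, a direction found in 15.7% of genes, while 0.763% were lower. With annotated and new spliced models alone in the denominator, it passed in 2, Atf4 and Eif2s2, against 0.742% of 1887 genes. The share of reads in any annotated model passed in the same 8, all higher, against 18.1% of 2068 genes, split into 17.7% higher and 0.387% lower. Without genomic models it passed in 7, against 13.9% of 2016 genes, Eif3l being lost (adjusted p 0.0554). With incomplete models counted as annotated it passed in 1, Eif4a1, against 5.03% of 2068 genes. The share of annotated retained-intron models was tested in the 7 members with a read in one and at least 50 reads in each library. It passed in 2, Atf4 and Eif2s2, both lower, against 1.3% of 694 genes, split into 1.01% lower and 0.288% higher.

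**Figure D1:**
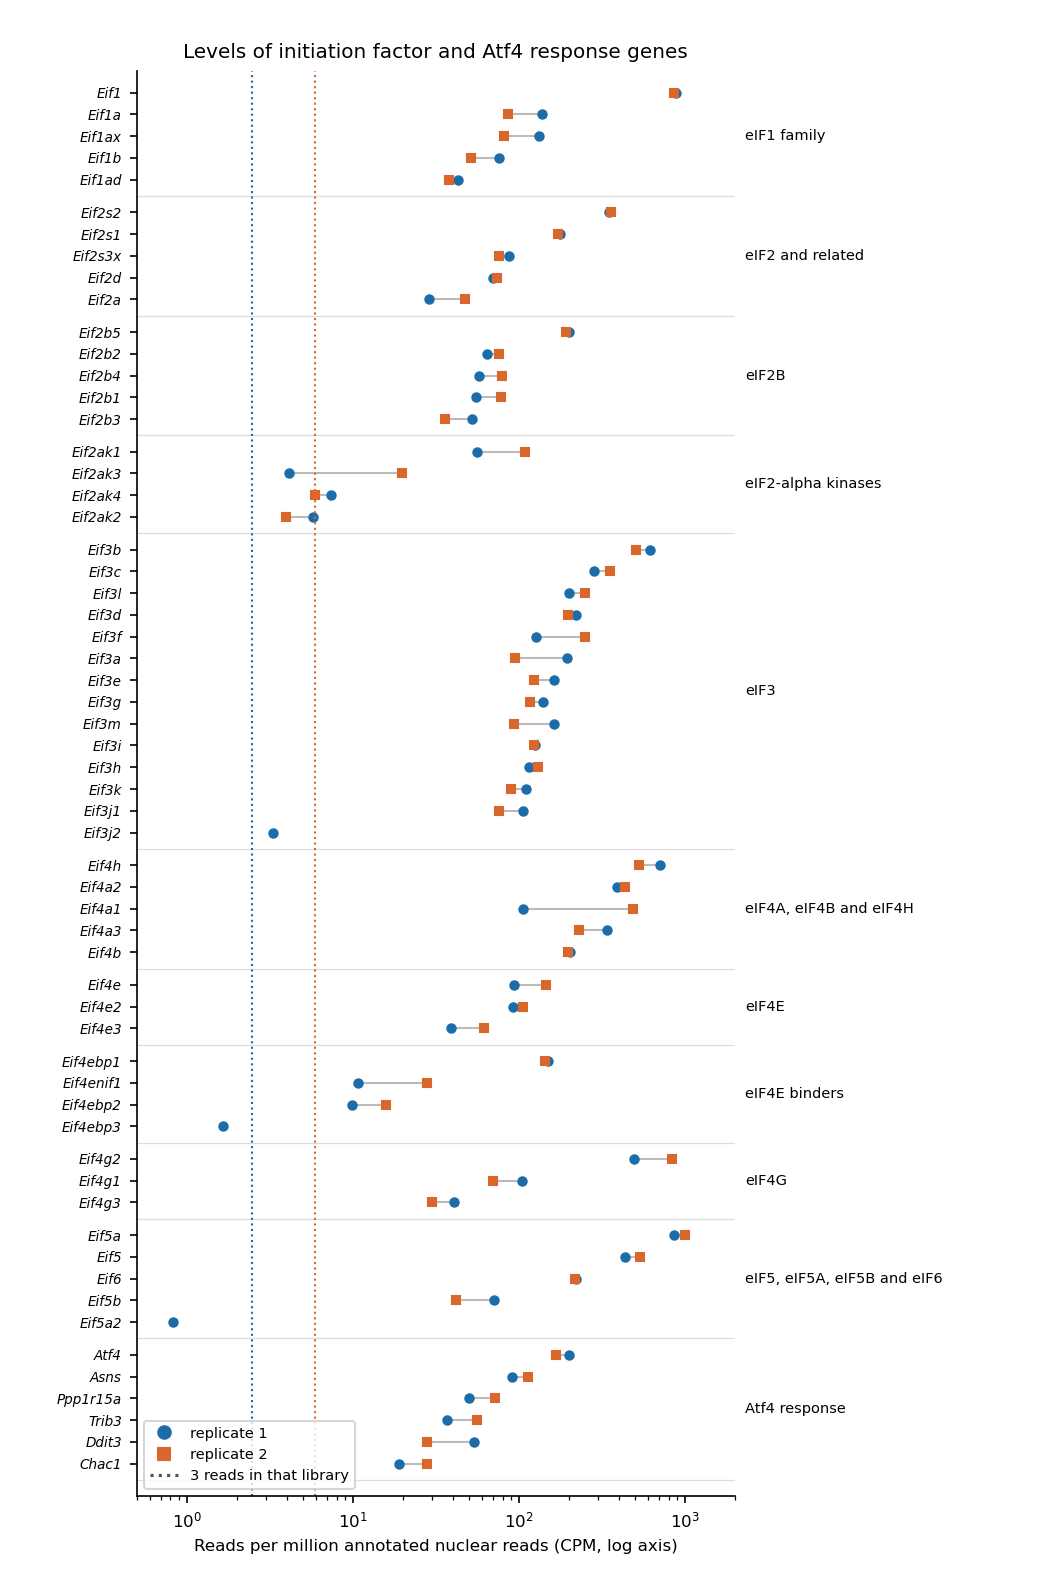
CPM (log axis) for each member with a read, by role, with replicate 1 as circles, replicate 2 as squares and a grey line joining them. Dotted lines mark 3 reads in each library. Eif1 and Eif5a lie between 859 and 995 CPM, Eif4a1 shows the widest gap among members over 100 CPM, and genes with 0 reads in a library lack that library's point.

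The 6 named genes of the Atf4 response were all detected and summed to 451 CPM in the first library and 464 CPM in the second. None of the 6 passed the test between libraries. Atf4 itself, the transcription factor of the response (ENSMUSG00000042406.8, chr15:80255184-80257541, plus strand of mm10), had 242 reads (200.1 CPM) in replicate 1 and 84 (167 CPM) in replicate 2, a log2 ratio of -0.25 (SE 0.182) with an adjusted p of 0.390 in Fisher's exact test. Asns, asparagine synthetase (ENSMUSG00000029752.12, chr6:7675169-7693254, minus strand), had 110 reads (90.9 CPM) in replicate 1 and 57 (113 CPM) in replicate 2. Ppp1r15a, which directs protein phosphatase 1 to phosphorylated eIF2 alpha and so ends the response, had 61 reads (50.4 CPM) in replicate 1 and 36 (71.6 CPM) in replicate 2. Trib3, a pseudokinase that dampens signalling through Akt and Atf4, had 45 reads (37.2 CPM) in replicate 1 and 28 (55.7 CPM) in replicate 2. Ddit3, the transcription factor CHOP, had 65 reads (53.7 CPM) in replicate 1 and 14 (27.9 CPM) in replicate 2, a log2 ratio of -0.91 (SE 0.419) with an adjusted p of 0.109. Chac1, which degrades glutathione, was the lowest at 23 reads (19.0 CPM) in replicate 1 and 14 (27.9 CPM) in replicate 2. Atf4 and Ddit3 were thus lower in replicate 2 by CPM and the other 4 higher, without any passing the test. Counted over annotated models alone, where 13.9% of tested genes were called, Ddit3 did pass, at a log2 ratio of -1.21. A second identifier named Ddit3 (ENSMUSG00000116429.1), which overlaps the first on the same strand, had 0 reads in both libraries.

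Atf4 and its partners bind composite elements in the genes they switch on. The letters TGATGNAA, the core of such an element, were searched on both strands in RefSeq promoter windows of build GRCm38.p6, from 250 bases before to 50 after each start. They stood in 4.51% of 27025 genes and in 3.97% of 32851 windows. They stood in 3 of the 6 genes of the Atf4 group and in 1 of the 43 matched Eif genes. The 3 matches are shown because they are the sequence these genes share in this window, with the match in capitals, which is TTNCATCA where it lies on the other strand.
Asns at chr6:7693214-7693243, minus strand: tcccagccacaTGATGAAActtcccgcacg
Chac1 at chr2:119351038-119351067, plus strand: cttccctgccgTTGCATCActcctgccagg
Trib3 at chr2:152344028-152344057, minus strand: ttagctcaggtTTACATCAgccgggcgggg
The match began 23 bases before the start site in Asns, 193 before it in Chac1 and 14 past it in Trib3. A match describes letters only, and the windows of Atf4, Ddit3 and Ppp1r15a held none.

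Other genes of the pathway were read alongside. Of 31 further targets of Atf4 or the integrated stress response, 25 were detected and 26 tested, of which 2 were called higher and 2 lower in replicate 2, where 5.96% and 3.59% of all genes were, with a median log2 ratio of -0.01. The list summed to 5131 and 5005 CPM, led by Cebpb, a transcription factor, at 2757 and 2678 CPM. Sesn2, a leucine sensor, was higher (18 against 34 reads, log2 ratio 2.17), and so was Slc7a5, an amino acid transporter (18 against 30 reads, log2 ratio 1.99). Aldh18a1, an enzyme of proline synthesis, was lower (118 against 18 reads, log2 ratio -1.41), as was Atf5, a relative of Atf4 (93 against 16 reads, log2 ratio -1.24). Slc7a11 and Fgf21 had 0 reads, and Atf3 had 2 and 1. Of 19 partners in initiation, elongation and release, all 19 were detected, 2 were called higher (the eIF4E kinases Mknk1 and Mknk2) and 1 lower (the S6 kinase Rps6kb1), against the same shares over all genes. Mknk2 stood at 133 and 503 CPM and Mknk1 at 22.3 and 65.7 CPM.

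The transcripts of Atf4 differed between the libraries, while its total did not pass the test. Its spliced coding transcript Atf4-201 made up 105 of 242 reads (43.4%) in replicate 1 and 80 of 84 (95.2%) in replicate 2, a difference of 51.8 percentage points (Fisher's exact test, adjusted p 2.31e-17). The unspliced single-exon model Atf4-203, annotated as a retained-intron transcript, made up 96 of 242 reads (39.7%) in replicate 1 and 3 of 84 (3.57%) in replicate 2, a change of -36.1 points (adjusted p 1.55e-09).

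Atf4-201 has 2 introns. Intron 1 (chr15:80255686-80256206, 521 bases) lies in the 5' untranslated leader and intron 2 (chr15:80256522-80256633, 112 bases) in the coding region. Intron 1 was kept in 137 of 242 informative reads (56.6%, 50.1 to 62.9%) in replicate 1 and 3 of 84 (3.57%, 0.743 to 10.1%) in replicate 2, with exact Clopper-Pearson 95% intervals for counting error only. Intron 2 was kept in 96 of 242 informative reads (39.7%, 33.5 to 46.1%) in replicate 1 and 4 of 84 (4.76%, 1.31 to 11.7%) in replicate 2. The difference for intron 1 came from Atf4-203 with 96 and 3 reads and from a new incomplete model, which splices intron 2 but keeps intron 1, with 41 and 0 reads. Incomplete models hold only a part of an annotated transcript's chain of introns, with those at its 5' or 3' side missing, which says nothing of where their reads begin or end. Informative reads are those of models that reach across the intron. Introns were taken from the assigned model, so a single read of that model may not reach across the intron itself. The intervals of the libraries do not overlap for either intron. How often this holds over the introns of all genes was not counted.

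eIF2 is the GTPase that carries the initiator tRNA to the ribosome. Its alpha subunit Eif2s1, the target of the stress kinases, had 213 reads (176 CPM) in replicate 1 and 86 (171 CPM) in replicate 2. The beta subunit Eif2s2 (ENSMUSG00000074656.12, chr2:154871410-154892935, minus strand) had 424 reads (351 CPM) in replicate 1 and 181 (360.1 CPM) in replicate 2. The gamma subunit on the X chromosome, Eif2s3x, had 106 reads (87.6 CPM) in replicate 1 and 38 (75.6 CPM) in replicate 2, and its copy on the Y, Eif2s3y, had 0 reads in these female animals. Eif2d, which can deliver tRNA without eIF2, had 84 reads (69.5 CPM) in replicate 1 and 37 (73.6 CPM) in replicate 2. Eif2a, a factor that can also deliver tRNA without eIF2, had 35 and 24 reads, or 28.9 and 47.7 CPM. None of these levels passed the test, and the log2 ratio was -0.04 (SE 0.184) for Eif2s1 and 0.04 (SE 0.128) for Eif2s2. Of Eif2s3x, 56 of 106 reads in replicate 1 and 3 of 38 in replicate 2 were of the genomic class, whose models match no annotated chain of introns. In replicate 1 all 56 came from 1 single-exon model of 1413 bases that ends at the annotated end of the gene.

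The transcripts of Eif2s2 had the smallest adjusted p for the main transcript share among the 28 members tested. The coding transcript Eif2s2-201 made up 206 of 424 reads (48.6%) in replicate 1 and 177 of 181 (97.8%) in replicate 2 (adjusted p 6.41e-36). Retained-intron models made up 121 of 424 reads (28.5%) in replicate 1 and 0 of 181 (0%) in replicate 2 (adjusted p 2.19e-19), where a count of 0 of 181 allows up to 2.02% by the exact interval. In replicate 1 these were Eif2s2-202 with 69 reads and Eif2s2-203 with 52. Both keep intron 3 (chr2:154884447-154887703, 3257 bases), which was kept in 121 of 416 informative reads (29.1%, 24.8 to 33.7%) in replicate 1 and 0 of 180 (0%, 0 to 2.03%) in replicate 2. Eif2s2-202 also keeps intron 2 (375 bases), kept in 69 of 416 and 0 of 180 reads. A new incomplete model with 75 and 0 reads splices both introns and stops in the same coding exon. In all, 199 of 424 reads (46.9%) in replicate 1 and 0 of 181 in replicate 2 belonged to models that end in the coding region.

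The sequence at these ends is shown for the 5 single ends with the most reads over both libraries, from the M21 transcript sequences (GRCm38), as the 10 bases before the end in lower case and the 20 after it, along the spliced coding transcript, in capitals.
Eif2s2 after base 154884378 of chromosome 2: tatgcttggcAACAAAAAAAAGAAAAAGAA
Eif2s2 after base 154884343 of chromosome 2: ttaaattcccAGAAGAAGATGAAATACTAG
Eif5 after base 111541727 of chromosome 12: ttggtacaggAAAGAAAGAAAAGGAAAAGA
Eif5b after base 38021811 of chromosome 1: aaaagaagagGAACGATTAGAACAAGAAAA
Eif3c after base 126564416 of chromosome 7: tcttaatgagCTTTGGGAAGATAAAGAAGG
The first Eif2s2 end is the annotated end of Eif2s2-202. It had 70 and 0 reads, and 69 of those in replicate 1 were assigned to that model. This end is followed by 17 A in 20 bases with a run of 8. As many A stand in 0.0793% of windows of 20 bases along Eif2s2-201. Of the 7 codons after it (123 to 129 of 331), 6 read AAA or AAG, both for lysine. Lysine runs of eIF2 beta are known to bind eIF5 and the epsilon subunit of eIF2B. The second Eif2s2 end, 35 bases further along, is the annotated end of Eif2s2-203. It had 127 and 0 reads and is followed by 11 A in 20. In replicate 1, 52 of the 127 were assigned to Eif2s2-203 and 75 to the new incomplete model. For annotated models the end is taken from the annotation, so single reads may end elsewhere.

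**Figure D2:**
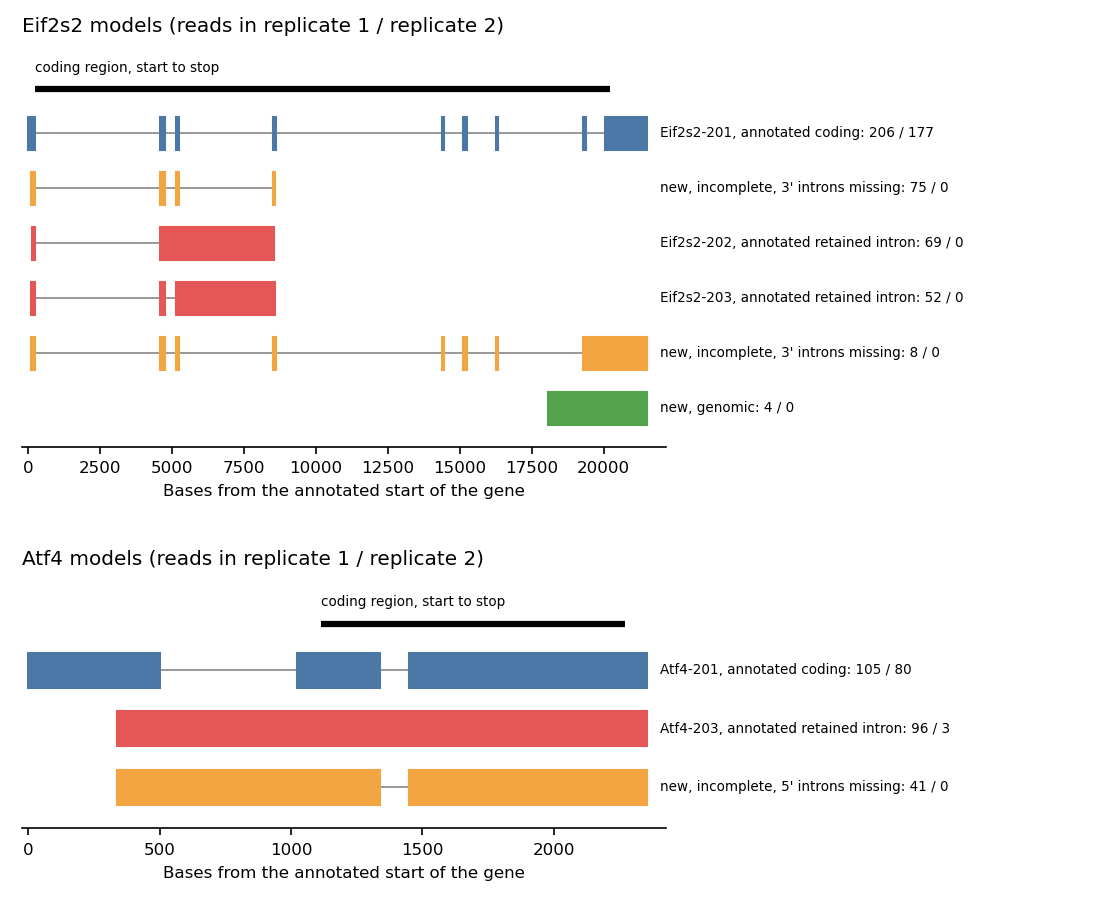
Exons (boxes) of the Eif2s2 and Atf4 models with at least 3 reads over both libraries, against bases from the annotated start of each gene, with reads in replicate 1 and replicate 2 beside each. The black bar spans the coding region. Retained-intron models (red) of Eif2s2 hold 69 and 52 reads in replicate 1 against 0 in replicate 2, and that of Atf4 holds 96 against 3.

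eIF2B recharges eIF2 with GTP. Its catalytic subunit, Eif2b5, had 244 reads (202 CPM) in replicate 1 and 96 (191 CPM) in replicate 2. The other 3 most abundant subunits, Eif2b2, Eif2b4 and Eif2b1, lay at 55.4 to 79.6 CPM over both libraries. Eif2b3 had 63 and 18 reads, or 52.1 and 35.8 CPM. None of the 5 subunits passed the test, and the complex summed to 432 and 459.6 CPM.

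Of the 4 kinases that phosphorylate eIF2 alpha, the haem-regulated Eif2ak1 was the most abundant, with 68 reads (56.2 CPM) in replicate 1 and 55 (109 CPM) in replicate 2. Its log2 ratio of 0.96 (SE 0.261) had an adjusted p of 0.00339 but stayed under 2-fold. Eif2ak3, or PERK, the kinase of endoplasmic reticulum stress, had 5 and 10 reads, or 4.13 and 19.9 CPM. It was called higher in replicate 2, with a log2 ratio of 2.20 (SE 0.759) and an adjusted p of 0.0214 in Fisher's exact test. That call rests on few reads, and over annotated models alone these were too few for a test. Eif2ak4, or GCN2, the sensor of amino acid shortage, had 9 and 3 reads. Eif2ak2, or PKR, the sensor of double-stranded RNA, had 7 and 2, under the 10 reads over both libraries needed for a test. Eif2ak1 overlaps Aimp2 on the opposite strand over 1548 bases.

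eIF3 is the multi-subunit scaffold that holds the small subunit, and 13 of its 14 genes were detected. Of the core subunits, Eif3b had 741 reads (613 CPM) in replicate 1 and 255 (507 CPM) in replicate 2. Eif3c had 343 reads (284 CPM) in replicate 1 and 179 (356 CPM) in replicate 2. Eif3l had 244 and 126 reads, or 202 and 251 CPM and Eif3d 266 and 100 reads, or 219.9 and 199 CPM. Eif3a, the largest subunit, had 236 reads (195 CPM) in replicate 1 and 48 (95.5 CPM) in replicate 2 and was the only member called lower, with a log2 ratio of -1.02 (SE 0.227) and an adjusted p of 3.32e-05. That call was lost over annotated models alone (-0.50) and after removal of the trend with length and GC content (-0.87). Of its reads, 69 of 236 reads in replicate 1 and 0 of 48 in replicate 2 came from models without the 3' introns. Eif3f had 154 reads (127 CPM) in replicate 1 and 126 (251 CPM) in replicate 2. Its log2 ratio of 0.98 (SE 0.173) was just under 2-fold, with an adjusted p of 1.08e-06 in Fisher's exact test. Over annotated models alone, where 13.9% of tested genes were called, Eif3f was called (1.08). The other 7 detected subunits (Eif3e, Eif3g, Eif3m, Eif3i, Eif3h, Eif3k and Eif3j1) lay at 75.6 to 163 CPM, none called. Eif3j2 had 4 and 0 reads, and its coding sequence is 100% identical to that of Eif3j1, which had 128 and 38, so reads of the pair cannot be told apart with certainty.

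eIF4A unwinds the mRNA leader, helped by eIF4B and eIF4H. Eif4a1 (ENSMUSG00000059796.16, chr11:69666936-69672423, minus strand), the main helicase, had 129 reads (107 CPM) in replicate 1 and 243 (483 CPM) in replicate 2. Its log2 ratio of 2.18 (SE 0.157), with an adjusted p of 5.90e-44 in Fisher's exact test, was the only one in the group past the threshold. Its relative Eif4a2 had 470 reads (389 CPM) in replicate 1 and 219 (436 CPM) in replicate 2, so that Eif4a2 exceeded Eif4a1 in replicate 1 and Eif4a1 exceeded Eif4a2 in replicate 2. Eif4a3, a core part of the exon junction complex, had 411 reads (339.8 CPM) in replicate 1 and 116 (231 CPM) in replicate 2. Eif4h had 853 reads (705 CPM) in replicate 1 and 266 (529 CPM) in replicate 2, and Eif4b 247 and 99 reads, or 204 and 197 CPM. Nr4a1 and Hspa1b moved in the same direction as Eif4a1 (log2 ratios 2.56 and 1.59). Jun, Egr1 and Fos had log2 ratios of -0.59, -0.92 and -1.40 and were not called. Egr1 had only 20 and 4 reads and Fos 9 and 1. The part of these genes in the result was not tested.

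A processed pseudogene, Eif4a-ps4 (ENSMUSG00000101188.1, chr1:60703932-60705149, plus strand), is 99.9% identical to the Eif4a1 coding sequence. It was assigned 82 reads in replicate 1 and 169 in replicate 2. Reads of the pair may be assigned to the wrong one. Their sum was 211 reads (174 CPM) and 412 reads (819.6 CPM), giving a log2 ratio of 2.23 (SE 0.122), and the pseudogene held 38.9% and 41.0% of it. Within Eif4a1, genomic models made up 31 of 129 reads in replicate 1 and 3 of 243 in replicate 2, and the coding transcript Eif4a1-213 made up 70 of 129 reads (54.3%) in replicate 1 and 209 of 243 (86.0%) in replicate 2.

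**Figure D3:**
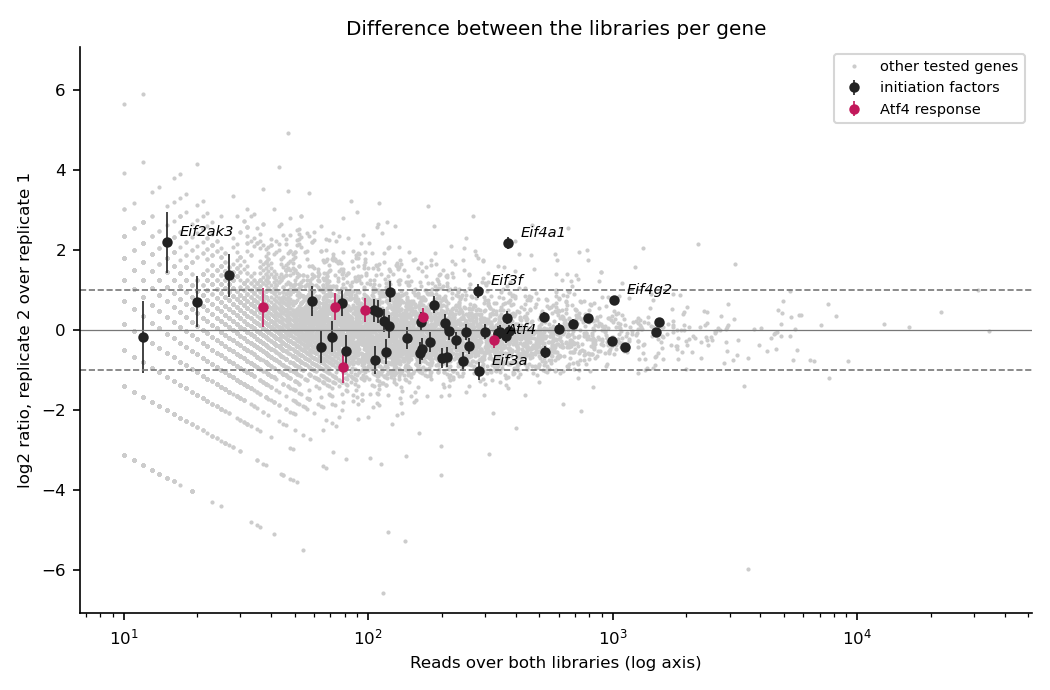
Log2 ratio of replicate 2 over replicate 1 against reads over both libraries (log axis) for each tested gene, with initiation factors in black, the Atf4 group in magenta, other genes in grey and bars for the counting SE. Dashed lines mark 2-fold. Eif4a1 and Eif2ak3 lie above the upper line and Eif3a just below the lower one, while Eif4g2, with 594 and 418 reads, lies inside.

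The cap-binding factor Eif4e had 113 reads (93.4 CPM) in replicate 1 and 73 (145 CPM) in replicate 2. Eif4e2, which binds the cap and represses translation, had 111 reads (91.8 CPM) in replicate 1 and 53 (105 CPM) in replicate 2, and Eif4e3 had 47 and 31 reads, or 38.9 and 61.7 CPM. The oocyte form Eif4e1b had 0 reads. Of the proteins that bind eIF4E and block it, Eif4ebp1, a target of mTOR, had 180 reads (149 CPM) in replicate 1 and 72 (143 CPM) in replicate 2. Eif4ebp2 had 12 and 8 reads, of which 12 and 6 were of the genomic class, and Eif4ebp3 had 2 and 0. Eif4enif1, the eIF4E transporter, had 13 and 14 reads and lies across Drg1, a gene on the opposite strand with 154 and 62.

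Among the eIF4G scaffolds, Eif4g2, which lacks the region that binds eIF4E, had 594 reads (491 CPM) in replicate 1 and 418 (832 CPM) in replicate 2. Its log2 ratio of 0.76 (SE 0.0921), adjusted p 5.05e-14, was under 2-fold and passed 2-fold once the trend with length and GC content was removed (1.08). Eif4g1, the main scaffold, had 127 reads (105 CPM) in replicate 1 and 35 (69.6 CPM) in replicate 2, and Eif4g3 had 49 and 15 reads, or 40.5 and 29.8 CPM. Reads of these long transcripts were mostly incomplete: models without the 5' introns made up 91 of 127 reads in replicate 1 and 25 of 35 in replicate 2 for Eif4g1, and 35 of 49 reads in replicate 1 and 11 of 15 in replicate 2 for Eif4g3.

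In the eIF1 family, Eif1, which guards start codon choice, had 1071 reads (886 CPM) in replicate 1 and 432 (859 CPM) in replicate 2. Its partner eIF1A is encoded by Eif1a, with 167 and 43 reads, or 138 and 85.5 CPM, and by Eif1ax on the X chromosome, with 160 and 41 reads, or 132 and 81.6 CPM. Eif1b, a relative of Eif1, had 92 and 26 reads, or 76.1 and 51.7 CPM. Eif1ad, which carries an eIF1A-like domain, had 52 and 19 reads, or 43.0 and 37.8 CPM. All 5 genes of the family had a higher CPM in replicate 1 and none was called, with adjusted p of 0.0261 for Eif1a and 0.0325 for Eif1ax at less than 2-fold. A transcript of Emd, the emerin gene, holds a stretch 96.8% identical to the Eif1 coding sequence, and Emd was assigned 8 and 39 reads. In all, 14 of 58 members compared had such a copy, with at least 95% identity over at least 80% of the coding sequence.

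Late in initiation, Eif5 triggers GTP hydrolysis by eIF2, Eif5b joins the large subunit, and Eif6 keeps that subunit apart until it is released. Eif5a, an elongation factor that carries hypusine, had the highest mean of all members, 929 ± 93.0 CPM (SD, n = 2), from 1044 and 500 reads, or 863 and 995 CPM. Eif1 stood at 872 ± 18.4 CPM, so these neighbours in order do not differ beyond their spread. Eif5 had 525 reads (434 CPM) in replicate 1 and 268 (533 CPM) in replicate 2. Eif6 had 268 reads (222 CPM) in replicate 1 and 109 (217 CPM) in replicate 2 and Eif5b had 86 and 21 reads, or 71.1 and 41.8 CPM. Eif5a2 had 1 and 0 reads.

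The full-length transcript Eif5-202 made up 216 of 525 reads (41.1%) in replicate 1 and 202 of 268 (75.4%) in replicate 2 (adjusted p 1.60e-18). The end at base 111541727, in the coding region of Eif5 and printed with the Eif2s2 ends, was that of 193 of 525 reads (36.8%) in replicate 1 and 3 of 268 (1.12%) in replicate 2. It is the annotated end of Eif5-208, lies 2963 bases before the annotated end of Eif5-202, and is followed by 15 A in 20 bases. As many A stand in 0.248% of windows along Eif5-202, and 4 of the next 7 codons (154 to 160 of 429) are lysine codons. Counted over annotated models alone, where 13.9% of tested genes were called, Eif5 was called higher in replicate 2, at a log2 ratio of 1.07. Over all its reads the ratio was 0.30 (SE 0.108). Eif5b ended at base 38021811 in 49 of 86 reads (57.0%) in replicate 1 and 9 of 21 (42.9%) in replicate 2, the last base of a coding exon, with 12 A in the next 20.

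Over all members, models ending in the coding region, more than 50 bases before the annotated end, held 687 of 11947 reads (5.75%) in replicate 1 and 18 of 5234 (0.344%) in replicate 2. Over all protein-coding genes with a coding transcript read, the shares were 1.39% and 0.185%. This covers incomplete, genomic and retained-intron models. Among the 28 members with at least 50 reads in each library, the share was higher in replicate 1 for 12, higher in replicate 2 for 1 (Eif4a1) and 0 in both for the other 15. Of the 12, Eif2s1, Eif4e, Eif3l, Eif4b, Eif3g, Eif3b and Eif5a had only 1 or 2 such reads in replicate 1. Eif4a1 had 1 in replicate 2, and replicate 2 is the shallower library. The matching split over all genes was not counted. Eif2s2, Eif5 and Eif3c led, at 46.9%, 41.3% and 12.8% in replicate 1 against 0%, 1.12% and 0% in replicate 2. There were 13 such ends with at least 10 reads, in 7 members. The median number of A in the next 20 bases was 9 for these and 9 for the 259 ends of all protein-coding genes. At least 10 A followed 6 of the 13 ends (46.2%) and 115 of the 259 (44.4%). The first Eif2s2 end and the leading Eif5 end are among the 6. Eif3c stopped at base 126564416 with 36 and 0 reads and 8 A after it. Of the 13, 9 lay at the last base of an exon, as did 138 of the 259 ends of all protein-coding genes. Ends are those of the deposited models, and single reads assigned to a model may end elsewhere. Whether A content bears on these ends was not tested.

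**Figure D4:**
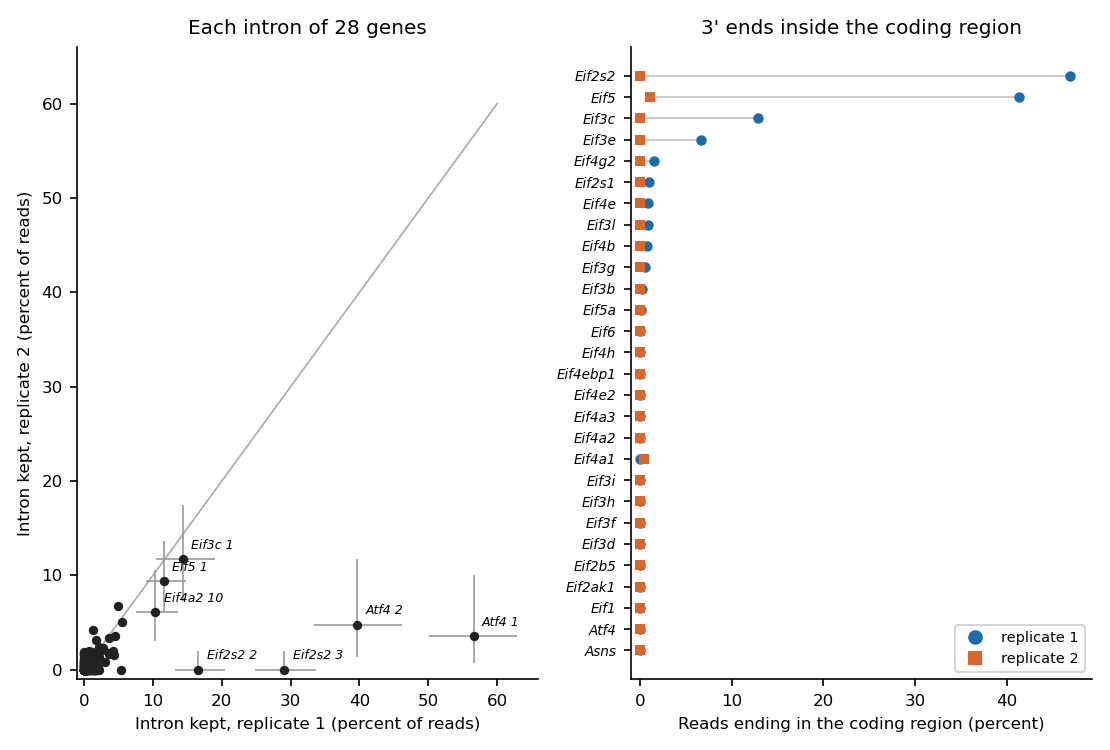
Left, percent of informative reads that keep each of 274 introns in 28 members, replicate 2 against replicate 1, with exact 95% intervals where either is at least 10% and intron numbers after gene names. Right, percent of each member's reads in models that end inside the coding region. Atf4 and Eif2s2 introns lie near the horizontal axis, and Eif2s2 and Eif5 reach 46.9% and 41.3% in replicate 1.

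Intron by intron, 274 introns of the 28 members had at least 50 informative reads in each library. Pooled over them, 1.09% of intron readings in replicate 1 and 0.462% in replicate 2 kept the intron, against 0.918% and 0.737% over 15737 introns of 1934 protein-coding genes. At least 10% was reached by 7 member introns in replicate 1 and 1 in replicate 2, or 2.55% and 0.365%, against 1.04% and 0.871% of all introns examined. Besides the 2 of Atf4 and 2 of Eif2s2, these were intron 1 of Eif3c, intron 1 of Eif5 and intron 10 of Eif4a2. Intron 1 of Eif3c, in the leader, was kept in 40 of 279 informative reads (14.3%, 10.4 to 19.0%) in replicate 1 and 20 of 171 (11.7%, 7.29 to 17.5%) in replicate 2. Intron 1 of Eif5, also in the leader, was kept in 11.6% and 9.38%, and intron 10 of Eif4a2, in the coding region, in 10.3% and 6.08%. For these 3 the intervals of the libraries overlap.

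Annotated retained-intron models held 1.89% in replicate 1 and 0.153% in replicate 2 of member reads, against 0.833% in replicate 1 and 0.581% in replicate 2 of reads of all protein-coding genes. The called members, Atf4 and Eif2s2, were lower in replicate 2, and among 694 genes Atf4 ranked 2 and Eif2s2 ranked 4 by size of decrease. The other 5 members tested (Eif3l, Eif4a1, Eif5, Eif3e and Eif4h) had at most 3 such reads in a library. Without Eif2s2 and Atf4, the pooled shares were 0.0798% and 0.101%.

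Across the 28 members with at least 50 reads in each library, the main transcript was an annotated one in all 28. Beside Atf4, Eif2s2, Eif5 and Eif4a1, the members whose share passed were Eif3c, Eif3f, Eif3l and Eif4g2. Eif3c-201 made up 204 of 343 reads (59.5%) in replicate 1 and 149 of 179 (83.2%) in replicate 2, a difference of 23.8 points. Eif3f-201 made up 83.1% and 95.2%, Eif3l-201 79.1% and 90.5%, and Eif4g2-213 62.3% and 73.4%. The median share over the 28 members was 83.4% and 90.5%, against 80% and 86.5% over all genes tested. With annotated and new spliced models alone in the denominator, only Atf4 and Eif2s2 passed, against 0.742% of 1887 genes.

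Over member reads, annotated coding models held 78.2% in replicate 1 and 87.2% in replicate 2, against 75.1% and 80.8% over all protein-coding genes. Incomplete models without the 3' introns held 4.63% in replicate 1 and 0.726% in replicate 2, against 1.75% in replicate 1 and 0.659% in replicate 2 over all protein-coding genes. Those without the 5' introns held 8.49% in replicate 1 and 6.06% in replicate 2, against 7.39% and 5.49% over all protein-coding genes. Genomic models held 2.24% in replicate 1 and 1.01% in replicate 2, against 4.52% in replicate 1 and 2.34% in replicate 2 over all protein-coding genes. New spliced models were higher in replicate 2 in members and over all protein-coding genes. The class new in catalog, with new combinations of annotated splice sites, stood at 1.71% in replicate 1 and 2.62% in replicate 2. Over all protein-coding genes it stood at 4.19% and 4.93%. The class new not in catalog, with an unannotated site, stood at 1.52% in replicate 1 and 1.85% in replicate 2, against 3.05% and 3.69%. Eif1, Eif2s1, Eif4a3, Eif4ebp1, Eif5a and Eif6 were above 90% annotated in both libraries. Among the 28 members with at least 50 reads in each library, the lowest annotated share was that of Eif5 in replicate 1, 221 of 525 reads (42.1%).

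**Figure D5:**
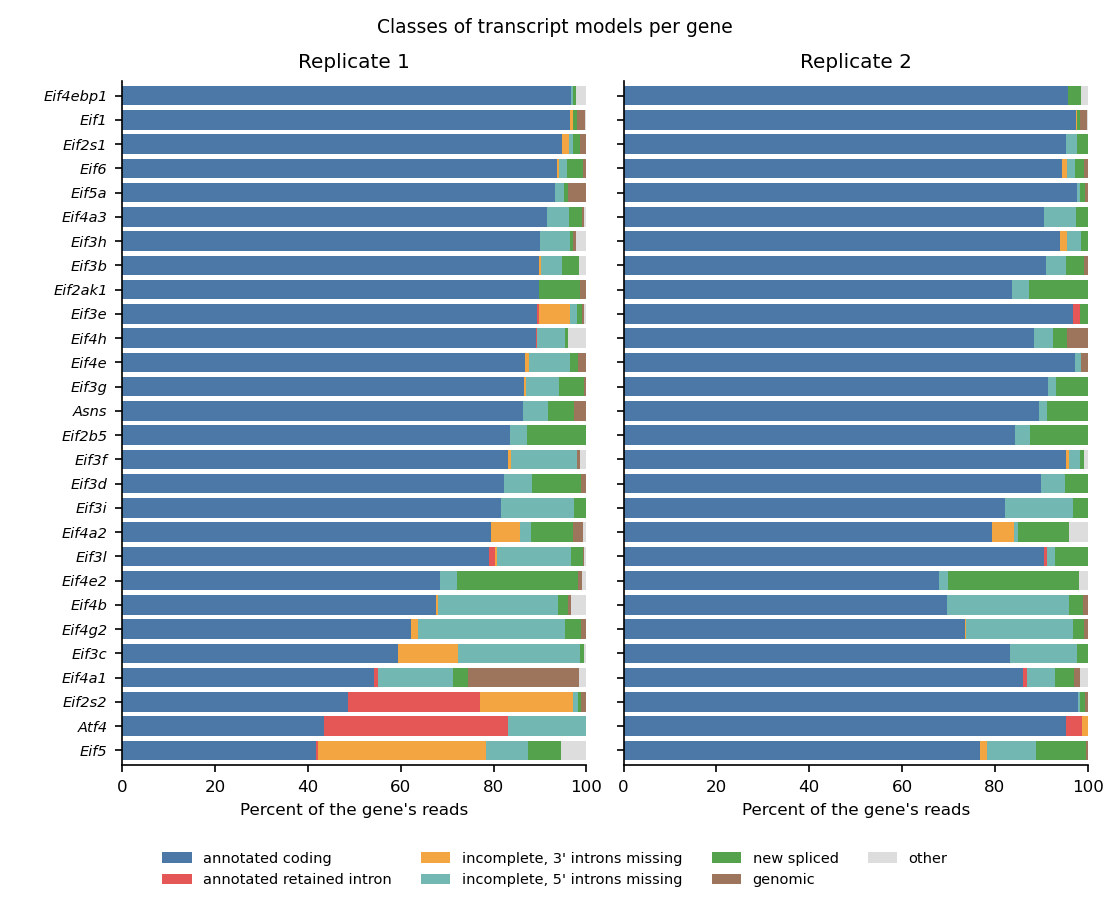
Share of each member's reads by class of transcript model, in percent, for the 28 members with at least 50 reads in each library, ordered by the annotated coding share in replicate 1. Eif2s2, Atf4 and Eif5 have annotated coding shares under 50% in replicate 1 and above 75% in replicate 2.

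Unannotated spliced models with at least 3 reads in both libraries were found in 5 members, 6 models in all. The most abundant was a model of Eif4e2 with 17 and 13 reads (15.3% and 24.5% of the gene), which differs from Eif4e2-203 by the added intron chr1:87226234-87237845, an annotated one. Eif4a2 had 14 and 10 reads of a model with an unannotated intron, chr16:23112462-23113166, which lies within intron 10, and a further model with the same intron had 4 and 3. Both place an exon inside intron 10. Eif3b had 8 and 3 reads of a model that lacks its intron chr5:140438395-140439912. Asns had 4 and 4 reads (3.64% and 7.02%) of a model with the unannotated intron chr6:7685407-7693108, which skips the second exon. Eif5 had 3 and 5 reads of a model that lacks the intron chr12:111538549-111539407. These models are present in both libraries, and no test of their shares was made.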

How the data were processed

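Long-read RNA-seq of total RNA from mouse adrenal gland gave 2 libraries of 1 group. The authors deposited, per the file headers, raw read counts per transcript model for each library on mm10 with the GENCODE M21 annotation, and the models themselves, which carry TALON as their source. The platform, the aligner and the release of TALON, not given in the sources used here, could not be taken into account. Depth was 1277310 and 520388 reads, so members under 3 reads are described only as reads.

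Counts were summed per annotated gene and scaled to CPM over annotated nuclear genes, leaving out spike-ins, mitochondrial genes and new genes. Models were matched between libraries by chromosome, strand and introns. Fisher's exact tests (Python 3.11.15, scipy 1.17.1) compared the libraries over all genes with at least 10 reads over both, or at least 50 in each for shares within genes, with Benjamini-Hochberg adjustment. Log2 ratios carry 0.5 added reads and a counting SE. The tests were checked on simulated data. edgeR 4.0.16 and DESeq2 1.42.0 gave the scaling alternatives. Promoter windows came from RefSeq, build GRCm38.p6, where 49 members matched by symbol. Model ends are those of the deposited models and, for annotated models, of the annotation. Intervals and limits cover counting error only.

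Members, lists and role groups were chosen with earlier results of these data known. The genes named were the Atf4 group, members called in a test, members under 3 reads in a library, those with the highest retained-intron shares, the 4 most abundant of each role group and genes with unannotated spliced models found in both libraries. Others with at least 50 reads in each library could be named. Eif1ad, Eif2a, Eif2b3, Eif3m, Eif3k and Eif3j1 lie outside this rule and are named to account for every member, after their values were seen. Eif1ax, missing from the list of role groups, was placed in the eIF1 family.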

Additional observations from a re-analysis of the deposited data

Results flagged for a closer look

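Reads assigned to the pseudogene Eif4a-ps4, which is no member and enters no test of the members, numbered 82 in replicate 1 and 169 in replicate 2, above the limit that a count of 0 allows. Its coding copy is 99.9% identical to that of Eif4a1, and its share of the summed reads of the pair was 38.9% and 41.0%.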

How the results depend on the processing

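No paired analysis was possible because the 2 libraries form 1 group. Among counts and levels that answer a comparison, 34 alternatives left the value within 1.5 times the count or 1 SD and 4 moved it, which does not say that the same genes were called. With annotated and new spliced models alone, the main transcript share passed in 2 members instead of 8. With at least 100 reads in each library, the retained-intron share passed in 1 of 5 members, against 1.49% of 336 genes, since Atf4 was no longer tested. With incomplete models added to the annotated ones, the annotated share passed in 1, Eif4a1, against 5.03% of 2068 genes. Over annotated models alone, the summed member level was 10729 CPM instead of 10145. In the first of these settings the difference in main transcript share became -0.83 percentage points for Eif3f, -1.17 for Eif3c and -3.61 for Eif3l. In the third, the difference in annotated share became -0.14 for Eif3f, -1.36 for Eif3c, -4.15 for Eif5 and -4.27 for Eif3l. These 2 settings leave out or merge the incomplete models by construction. With 1 library left out, the summed level was 9878 to 10413 CPM, 55 to 57 members were detected, and the retained-intron share was 0.153 to 1.89%.

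At the gene level, 3 members were called under either scaling, with no read minimum, without genomic models and with 1 added read. These settings called 5.24 to 11.6% of tested genes. With at least 50 reads, 2 of 50 members were called, against 11.7% of genes. Over annotated models alone, 4 of 48 members were called, against 13.9% of 8120 genes. That setting lost Eif2ak3 and Eif3a and gained Ddit3, Eif3f and Eif5. With the trend in length and GC taken out of the log2 ratio, 3 were called, against 8.54% of genes, losing Eif3a and gaining Eif4g2. In that setting the p-values stayed those of the uncorrected counts, so only the 2-fold limit was applied anew. The log2 ratio of Eif4a1 lay between 2.18 and 2.71 over the alternatives. With at least 20 reads in each library, more members were tested, and 11 of 46 passed for both the main transcript and annotated shares, against 12.2% and 13% of genes, adding Eif2s3x, Eif3a and Eif5b. Without Eif2s2 and Atf4, an alternative chosen after seeing the data, the retained-intron share averaged 0.0902%. Depth limits the members under 10 reads, and no replicate of either library was at hand to separate library from animal.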
